A study of Homo sapiens with 72 samples.

Results

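A set of 100 long non-coding RNA (lncRNA) genes was examined that were lower with transforming growth factor beta (TGF-β) than with its receptor inhibitor in both MCF10A-derived breast lines at 24 h, and differed little in the breast cancer line MDA-MB-231. For each line, D was the mean log2(TPM + 0.5) of the 24 h TGF-β libraries minus that of the 24 h SB431542 libraries, less the median of the same difference over all genes tested in that line. TPM is the share of a transcript in its library, corrected for its length. A member had D of −0.6 or lower in MCF10A-M1 and in MCF10A-M2, with all TGF-β libraries below all inhibitor libraries in both, and D within 0.3 of zero in MDA-MB-231. Of 96411 lncRNA genes in the table, 13631 were tested in all 3 lines, 313 met these thresholds, and the 100 with the largest D in the weaker of both MCF10A lines were kept. The members thus made up 0.734% of the genes tested in all lines.

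TGF-β is a secreted ligand that brings type II and type I receptor kinases together at the cell surface. The type I receptor phosphorylates SMAD2 and SMAD3, which enter the nucleus with SMAD4 and raise some genes and repress others. In breast epithelial cells the pathway is known for growth arrest and for epithelial-to-mesenchymal transition, and in breast cancer cells for invasion. lncRNAs are transcripts with little or no protein-coding potential, and several are known targets of the pathway.

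MCF10A-M1 (M1) was labelled as MCF10A, a normal breast epithelial line, and MCF10A-M2 (M2) as the same line after transformation by HA-Ras. MDA-MB-231 was labelled as triple-negative breast cancer. Cells were kept overnight without serum and then received TGF-β at 5 ng/mL or the type I receptor inhibitor SB431542 (SB) at 10 µM. Libraries were made at 0, 2, 8 and 24 h in 3 replicates, 72 libraries in 24 groups. The TGF-β samples of 0 h were non-stimulated, whereas the SB samples of 0 h carry 0.5 h of SB in their treatment label and are called the earliest SB samples. Every comparison of both arms therefore sets ligand against inhibitor, not ligand against vehicle. Groups are written T0, T2, T8 and T24 for the TGF-β arm and S0, S2, S8 and S24 for the SB arm.

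The deposited TPM were scaled over lncRNA genes alone. Such values hold no read counts, so library depth is unknown and no counting error can be given. They come from bulk cultures, in which fewer cells of a kind and less RNA per cell cannot be told apart. With no named genes in the table, the identity of the lines was not checked against markers here. Between 8458 and 16748 genes reached 0.5 TPM in a library, and the 10 most abundant genes of a library held 56.74% to 78.81% of its TPM. In M2 fewer genes reached 0.5 TPM at 24 h in both arms, with 9080 ± 921 in T24 against 13571 ± 910 in T0, and 9310 ± 42.9 in S24 against 13123 ± 1024 in S0 (SD, n = 3 each). In MDA-MB-231 the number was 11199 ± 942 in T24 and 12799 ± 347 in S24, and in M1 it was 14772 ± 731 in T24 and 15664 ± 117 in S24. The part of this detection in the members' values was not tested. The names, positions and sequences behind the NONCODE identifiers were not used here. Only the members ranked 1 and 2 are therefore given by identifier, and the others by their rank in the weaker D.

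The values that chose the members are given as a description. In M1, D ran from −2.85 to −0.93 with a median of −1.16, and in M2 from −5.13 to −0.94 with a median of −1.56. In MDA-MB-231 it ran from −0.30 to 0.30 with a median of −0.08. The median subtracted from every gene was −0.21 for M1, −0.09 for M2 and −0.33 for MDA-MB-231, so a D near zero in MDA-MB-231 still holds a raw difference below zero. The weaker D was that of M1 for 71 members and that of M2 for 29. The last member kept had a weaker D of −0.928, the first gene outside had −0.9268, and the last gene that met the thresholds had −0.60. In MDA-MB-231, all T24 libraries lay below all S24 libraries for 27 of the 100 members, against 27.3% of all genes tested there. By the rule this held for all members in M1 and M2, where 21.7% and 21.4% of all genes tested were placed in the same way.

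The member ranked 1, NONHSAG009471.2, had the largest weaker D. In M1 it stood at 2.74, 1.65 and 2.76 TPM in the T24 libraries, against 23.3, 23.9 and 22.2 TPM in the S24 libraries. In M2 it stood at 3.81, 4.25 and 4.27 TPM in T24, against 31.4, 30.2 and 33.7 TPM in S24. In MDA-MB-231 the values were 2.01, 1.82 and 2.81 TPM in T24, against 6, 2.68 and 2.93 TPM in S24. The arms were well apart in both MCF10A lines, while in MDA-MB-231 the gene was low in both and the arms overlapped. Its D there, −0.2962, was close to the limit of the rule.

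The member ranked 2, NONHSAG037983.2, had 2.96, 1.91 and 3.43 TPM in M1 T24, against 15.4, 16 and 13.1 TPM in M1 S24. In M2 it was listed at 0, 0 and 0.505 TPM in T24, against 1.4, 2.53 and 3.18 TPM in S24. In MDA-MB-231 it had 1.66, 0.415 and 0.978 TPM in T24, against 1.56, 1.28 and 1.21 TPM in S24. The M2 value thus rested on TGF-β libraries at or near 0. In MDA-MB-231 the levels at 24 h were low in both arms, against 2.88, 4.39 and 3.28 TPM in T0 and 3.1, 3.54 and 4.06 TPM in S0.

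**Figure D1:**
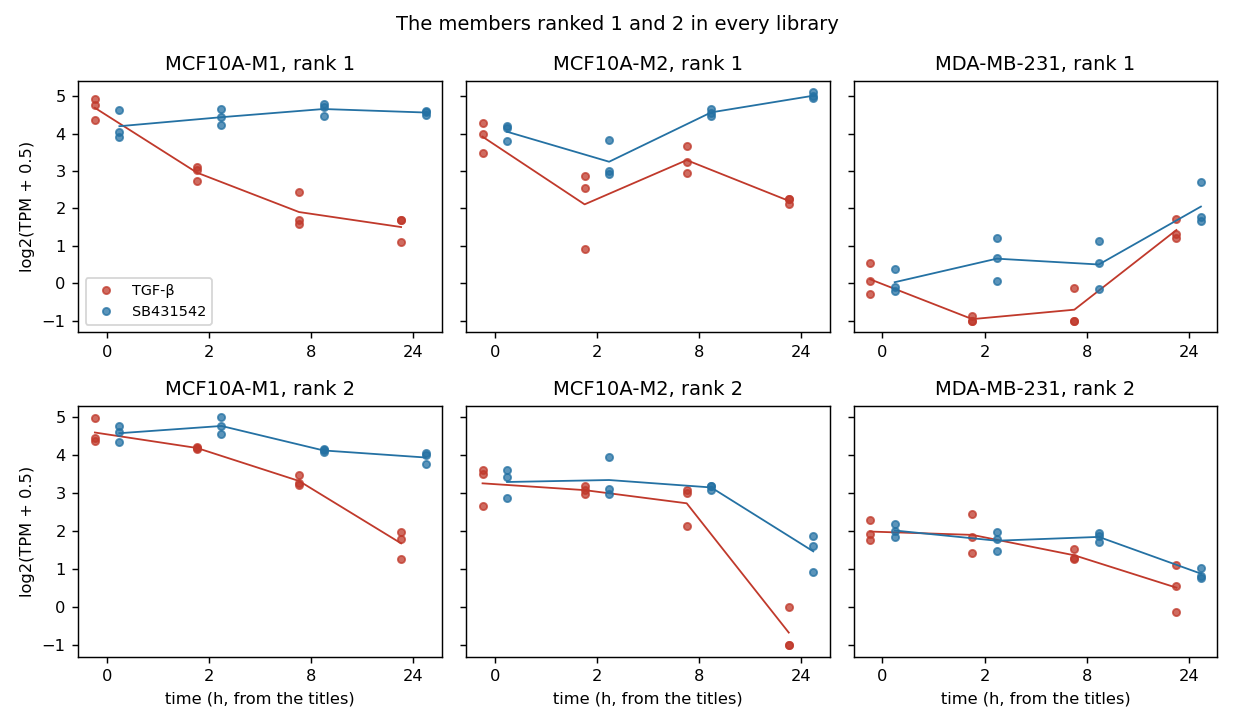
Level of the members ranked 1 (upper panels) and 2 (lower panels) as log2(TPM + 0.5) in every library of each line by time, with times evenly spaced; points are single libraries and lines join the group means. In M1 the TGF-β libraries of NONHSAG009471.2 at 8 h (4.91, 2.49 and 2.74 TPM) all lay below the SB libraries (25.7, 27.4 and 21.4 TPM), and in MDA-MB-231 no library before 24 h was above 1.83 TPM.

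The members stood above the typical gene tested in all lines, which their selection favoured. In non-stimulated cells of M1 their median was 11.4 TPM, against 3.29 TPM for all genes tested in all lines. In M2 these medians were 10.0 and 2.27 TPM, and in MDA-MB-231 7.29 and 1.76 TPM. The rule asked for T24 values well below S24 values in M1 and M2, not for a fall over time. The log2 scale used flattens differences of genes at low levels. Genes at higher levels were thus more easily chosen, and the part of this in the members' medians was not tested. At 24 h the members' median was 3.61 TPM with TGF-β and 11.4 TPM with SB in M1. In M2 it was 1.19 TPM with TGF-β and 5.38 TPM with SB. In MDA-MB-231 it was 5.15 TPM with TGF-β and 6.57 TPM with SB. After 24 h of TGF-β, 42 members averaged under 1 TPM in M2, 14 in MDA-MB-231 and 11 in M1. Of the 13631 genes tested in all lines, 7367, 5901 and 3541 did so in these lines. Only 8 members were under 1 TPM in non-stimulated MDA-MB-231 cells, against 4855 of these 13631 genes. Some expression in MDA-MB-231 was required of every member, because only genes tested in all lines could be chosen. That members were expressed there is therefore no separate result.

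The 24 h difference is made up of the change in each arm. In M1 the members' median change was −1.35 between T24 and T0 on the log2 scale and 0.12 between S24 and S0. The median over all genes tested was −0.25 for the TGF-β arm and near zero for the SB arm. In M2 the members' median change was −2.62 in the TGF-β arm and −1.19 in the SB arm, against −0.74 and −0.63 for all genes. In MDA-MB-231 the medians were −0.50 in the TGF-β arm and −0.32 in the SB arm, against −0.25 and −0.05 for all genes. The members' median was thus lower at 24 h than at the start in both arms of M2 and MDA-MB-231, and in the TGF-β arm of M1.

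Counted by member, all T24 libraries lay below all T0 libraries for 92 members of M1, 97 of M2 and 39 of MDA-MB-231. The same held for 23.5%, 50.4% and 18.7% of all genes tested in those lines. The rule used the T24 and S24 values, so members with low T24 values in M1 and M2 were favoured. These counts and those of the SB arm are therefore a description. In the SB arm, all S24 libraries lay below all S0 libraries for 24 members of M1, 75 of M2 and 36 of MDA-MB-231, against 13%, 48.4% and 13.7% of all genes tested. In M1, S24 lay above S0 for 28 members, against 11.9% of all genes tested. In M2 close to every other gene was lower at 24 h in either arm, beside the lower number of genes detected there, and the part of that number in the members' counts was not tested.

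With the all-gene median subtracted and a change of 0.6 as the mark, the TGF-β arm was lower at 24 h by at least that much for 81 members of M1, 95 of M2 and 20 of MDA-MB-231. Of all genes tested in those lines, 12.8%, 22.4% and 8.95% were. The SB arm was lower by as much for 18, 48 and 25 members, against 10.1%, 16.6% and 10% of all genes, and higher by as much for 13, 8 and 5 members, against 10.6%, 15.9% and 9.21%. In M1 the count of the TGF-β arm thus lay far above the share of all genes and those of the SB arm nearer to it. In M1, 60 members were lower in the TGF-β arm with the SB arm within 0.6 of its start, against 9.57% of all genes, and in M2 40 were, against 11.5%. Both arms were lower for 18 members of M1 and 48 of M2, against 2.27% and 10.2% of all genes. A further 10 members of M1 had the TGF-β arm not below the mark and the SB arm above it, which is near the 9.64% of all genes. In MDA-MB-231, 15 of the 20 members that were lower in the TGF-β arm were lower in the SB arm as well, where 2.72% of all genes were lower in both. For these the arms differed little at 24 h although both stood below their start. The members were chosen from the 24 h values, so these counts are a description.

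**Figure D2:**
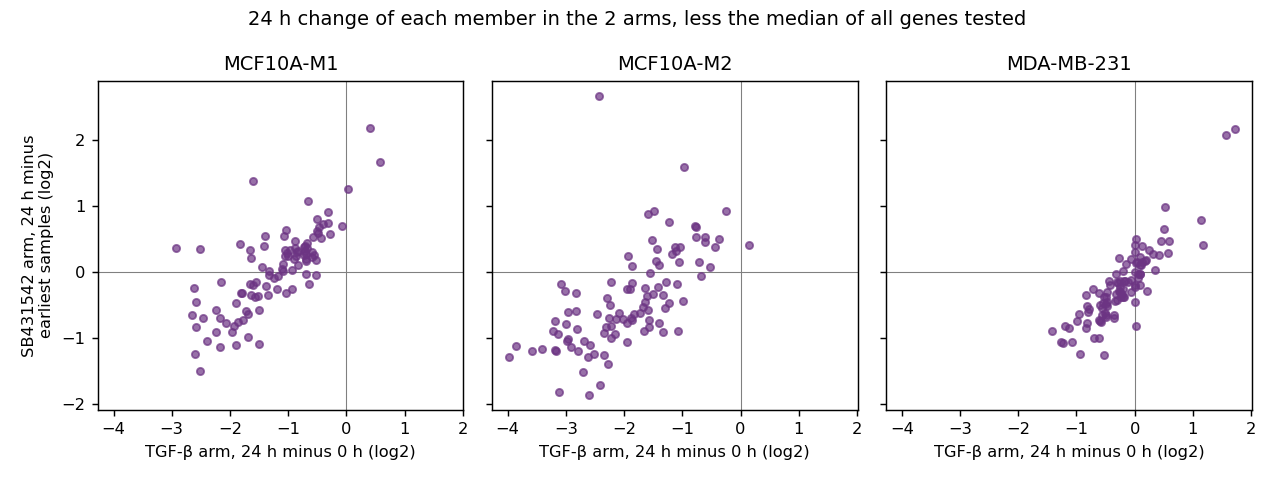
Change of each of the 100 members at 24 h in the TGF-β arm (x axis, T24 minus T0) and in the SB arm (y axis, S24 minus S0) of each line, in log2 units less the median of all genes tested; each point is a member. Points lie left of zero for most members in M1 and M2, extend to lower SB values in M2, and in MDA-MB-231 lie on both sides of zero with medians of −0.25 in the TGF-β arm and −0.27 in the SB arm.

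Because the 24 h libraries chose the members, tests were run on the 0, 2 and 8 h libraries alone. Genes with at least 0.5 TPM in at least 3 of the libraries of a fit were tested with limma on log2(TPM + 0.5), with Benjamini-Hochberg adjustment over all genes in the fit and a call at an adjusted p under 0.05. All 100 members passed this filter in every fit. Each comparison was repeated after rescaling every library by its median ratio to the other libraries of the fit. All differences are in log2(TPM + 0.5), a scale that flattens changes of genes at low levels.

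At 8 h many members were already lower with TGF-β in M1, some in M2, and none in MDA-MB-231 as deposited. In M1, 53 members were called lower and none higher in T8 than in S8, where 2.82% of all genes tested were called lower. The members' median difference was −0.75 with quartiles of −0.96 and −0.54, and the median of all genes was 0.04. The groups did not overlap for 73 members, T8 below S8, against 10.2% of all genes tested. After rescaling, 68 members were called lower, against 4.33% of all genes, with a median of −0.83. All 53 calls made as deposited were among them.

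In M2, 11 members were called lower in T8 than in S8 and none higher, where 0.565% of all genes tested were called lower. The median difference was −0.32 for the members and 0.23 for all genes tested. After rescaling the all-gene median was 0.06 and the members' median −0.58, and 49 members were called lower, against 5.04% of all genes. T8 lay wholly below S8 for 43 members, against 6.49% of all genes. The count as deposited was 5 without the S8 replicate 1 library, and 7 without S8 replicate 2, T8 replicate 2 or T8 replicate 3. The M2 count thus depended on the scaling and on single libraries, while the members' median lay below that of all genes under both scalings.

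In MDA-MB-231, limma called 0 members lower or higher in T8 than in S8, where 0.26% of all genes tested were called lower. At an unadjusted p under 0.05, 5 members were lower and 2 higher, close to the 4.34% and 3.64% of all genes tested. The median difference was −0.10, close to the −0.055 of all genes tested. T8 lay wholly below S8 for 7 members, against 7.06% of all genes, and wholly above for another 7, against 5.86%. After rescaling, 1 member was called lower, where 0.686% of all genes were. That member, ranked 92 and singled out for this call, had 2.47, 1.85 and 1.65 TPM in T8, against 3.86, 5.08 and 5.48 TPM in S8. It was within the rule at 24 h, with a D of −0.28 in MDA-MB-231, and its difference at 8 h as deposited was −1.09 ± 0.28 (SE, limma adjusted p = 0.0758).

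**Figure D3:**
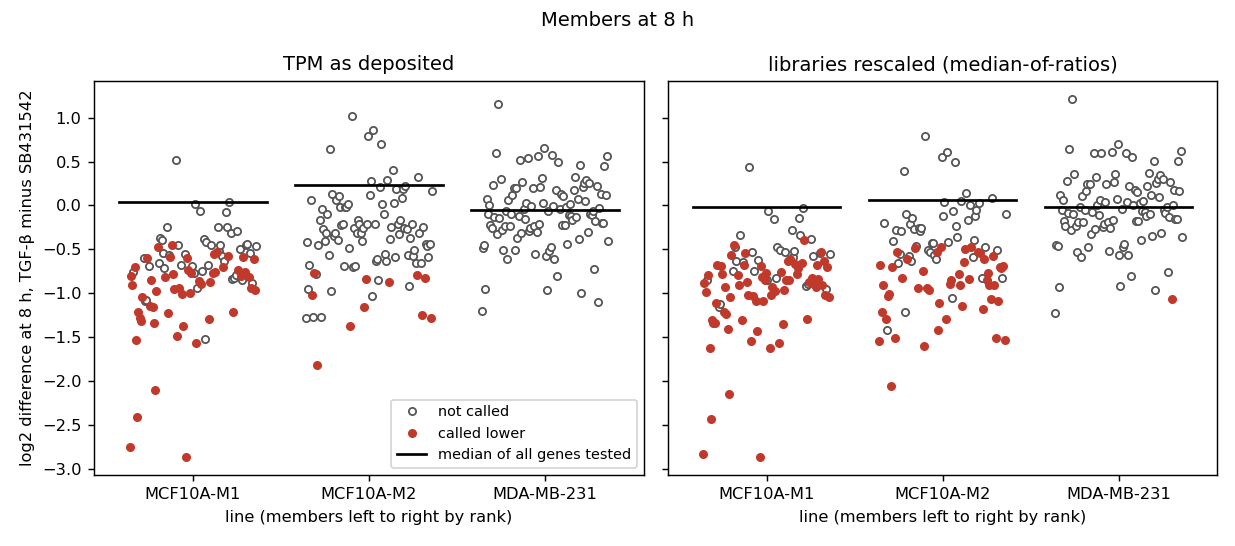
Difference between T8 and S8 for the 100 members in each line (log2, y axis), as deposited on the left and rescaled on the right; each point is a member, ordered by rank within a line, filled where called lower by limma, and the bar is the median of all genes tested. Most members lie below the bar in M1 (median −0.75 and highest value 0.52 as deposited). Their median is also below the bar in M2 (−0.32), and they lie around it in MDA-MB-231 (−0.10).

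Counted together as deposited, 10 members were called lower at 8 h in both MCF10A lines, 43 in M1 and not in M2, 1 in M2 and not in M1, and 46 in neither. After rescaling these counts were 41, 27, 8 and 24. Such joint calls were not counted over all genes, so no share stands beside them. A member called in M1 and not in M2 is not thereby shown to differ between them. The test of that difference, M2 minus M1, called 0 members in limma as deposited and 1 after rescaling. Of all genes tested, 0.343% were called in either direction as deposited and 1.14% after rescaling. At an unadjusted p under 0.05, 18 members had the higher difference in M2 and 1 the lower, against 6.34% and 2.26% of all genes tested, among which higher differences were also the more numerous.

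The members ranked 1 to 20, those with the strongest weaker D, included 15 called lower at 8 h in M1 and 3 in M2, while 0 were called in MDA-MB-231. Their 8 h differences in M1 ran from −2.75 to −0.59 with a median of −1.08, and in M2 from −1.81 to 0.64 with a median of −0.51. In MDA-MB-231 they ran from −1.21 to 1.16 with a median of −0.18. Of the members ranked 21 to 100, 38 were called lower in M1 and 8 in M2 as deposited, with medians of −0.68 and −0.29. After rescaling 51 and 37 of those ranked 21 to 100 were called lower in M1 and M2. The ranking uses the same contrast at 24 h, so the order is a description.

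NONHSAG009471.2 had 4.91, 2.49 and 2.74 TPM in M1 T8, against 25.7, 27.4 and 21.4 TPM in M1 S8. The difference was −2.75 ± 0.23 (SE, limma adjusted p = 2.4e-07), and it was lower in all 3 TGF-β libraries. In M2 it had 9.03, 7.24 and 12.2 TPM in T8, against 23.1, 24.8 and 21.7 TPM in S8. The groups did not overlap in M2 either, yet the difference of −1.28 ± 0.38 was not called as deposited (limma adjusted p = 0.0605) and was called after rescaling, at −1.54 (adjusted p = 0.0101). In MDA-MB-231 it had 0.424, 0 and 0 TPM in T8, against 0.396, 0.944 and 1.7 TPM in S8. The groups overlapped there, and the difference of −1.21 ± 0.37 was not called (limma adjusted p = 0.205).

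NONHSAG037983.2 had 9.14, 10.6 and 8.72 TPM in M1 T8, against 16.9, 16.5 and 17.2 TPM in M1 S8, a difference of −0.80 ± 0.16 (SE, limma adjusted p = 0.00375). In M2 it had 3.87, 7.49 and 7.89 TPM in T8, against 8.59, 8.53 and 7.96 TPM in S8. The M2 libraries did not overlap, but the T8 values reached almost to the S8 values, and the difference of −0.42 was not called (limma adjusted p = 0.528). After rescaling it was −0.67 and called (adjusted p = 0.0231). In MDA-MB-231 it had 1.97, 2.37 and 1.9 TPM in T8, against 2.8, 3.14 and 3.4 TPM in S8. The groups did not overlap there, with a difference of −0.48 that was not called (limma adjusted p = 0.71).

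Set against the non-stimulated cells, the TGF-β arm gave a similar order of lines. In M1, 53 members were called lower and 2 higher in T8 than in T0, where 4% and 5% of all genes tested were called. After rescaling 57 were called lower, against 5.65% of all genes. In M2, 15 members were lower, against 1.45% of all genes, and 28 after rescaling, against 3.29%. The M2 count was 9 without the T0 replicate 1 library and 7 without T0 replicate 3 or T8 replicate 1. In MDA-MB-231 limma called 0 members lower or higher as deposited, where 0.629% of all genes were called lower. After rescaling 1, the member ranked 99, was called higher, against 1.71% of all genes. At an unadjusted p under 0.05, 19 members were lower as deposited, against 11.7% of all genes. Time passed and serum-free culture went on between these groups, and no time-matched untreated cells were analysed here.

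Of the members of M1, 38 were lower in T8 than in both S8 and T0, and 14 were lower than in S8 without a call against T0. A further 1 was lower than in S8 and higher than in T0, and 15 were lower than in T0 without a call against S8. These joint counts were made for members only, with no share of all genes. The SB arm of M1 also moved by 8 h. There, 16 members were lower in S8 than in S0 and 6 were higher, where 1.83% and 1.71% of all genes were called. All 16 were also among those lower in T8 than in T0. The count of 6 was 3 without the S8 replicate 1 library. In M2 limma called 0 members lower and 0 higher in S8 than in S0, where 0.541% and 0.0541% of all genes were called. At an unadjusted p under 0.05, 36 members of M2 were lower and 1 higher, against 15.5% and 0.89% of all genes. After rescaling 2 were called higher, against 0.866% of all genes. In MDA-MB-231 limma also called 0 members in either direction, where 0.0635% of all genes were called lower and 0.00635% higher, with 23 lower and 1 higher at an unadjusted p under 0.05, against 14.3% and 0.997% of all genes.

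The member ranked 6, the most abundant member in M1 and M2 though not in MDA-MB-231, was singled out for the course of its arms in M1. In the SB arm it averaged 1787, 2423, 8532 and 8153 TPM at 0, 2, 8 and 24 h, and in the TGF-β arm 1925, 1475, 2964 and 2127 TPM. It was higher in S8 than in S0 by 2.26 ± 0.12 on the log2 scale (SE, limma adjusted p = 2.04e-09) and higher in T8 than in T0 by 0.63 ± 0.12 (adjusted p = 0.00222). Its difference between T8 and S8 of −1.53 ± 0.12 (limma adjusted p = 9.01e-08) thus stood beside a rise in both arms. In M2 it averaged 2117 TPM in T8 and 4298 TPM in S8, a difference of −1.02 ± 0.16 (limma adjusted p = 0.00061). There it was also lower in T8 than in T0, with a change of −0.96 (limma adjusted p = 0.00135). In MDA-MB-231 its level was far lower, 11 TPM in T8 and 12.8 TPM in S8.

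**Figure D4:**
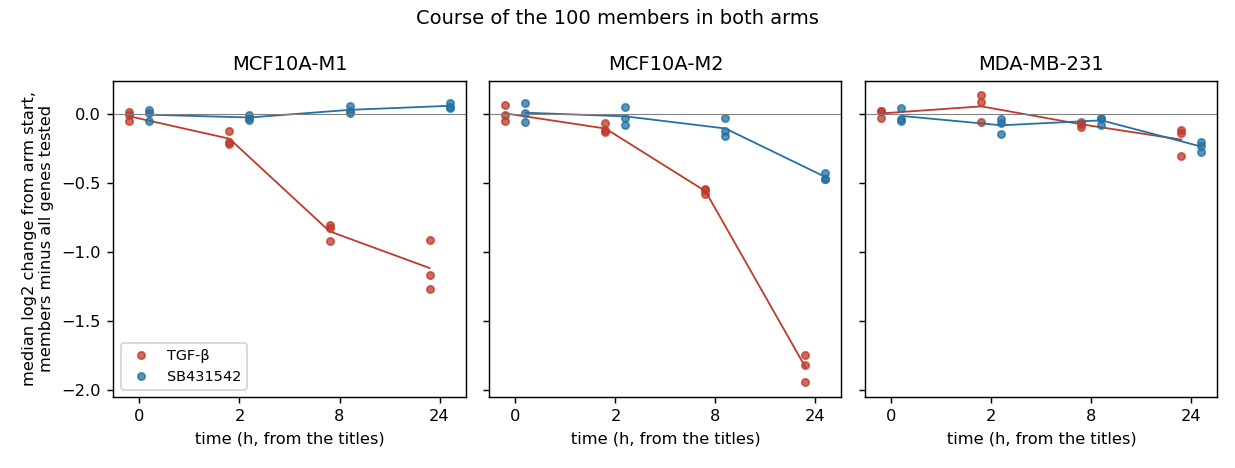
Course of the 100 members in both arms of each line by time, as the median log2 change of the members from the start of their arm less that of all genes tested (y axis), with times evenly spaced; points are single libraries and lines join their means. The mean of the TGF-β libraries was −0.18, −0.85 and −1.11 at 2, 8 and 24 h in M1 and −0.10, −0.56 and −1.83 in M2, and it stayed between −0.18 and 0.06 in MDA-MB-231; the 24 h points chose the members.

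Few members differed after 2 h. In M1, 4 members, ranked 1, 6, 18 and 22, were called lower in T2 than in S2, where 0.297% of all genes tested were. All 4 were also called lower at 8 h. In M2 limma called 0 members lower as deposited, where 0.0361% of all genes were, and 3 after rescaling, against 0.475% of all genes. At an unadjusted p under 0.05, 2 members of M2 were lower as deposited, against 1.05% of all genes. In MDA-MB-231, 1 member was called lower, where 0.597% of all genes were. After rescaling another was called higher, where 1.38% of all genes were.

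The member called in MDA-MB-231 at 2 h was NONHSAG009471.2, and 1 call among 100 members is near the share of all genes. It was listed at 0, 0.0469 and 0 TPM in T2, against 1.11, 0.547 and 1.83 TPM in S2, and the groups did not overlap. The difference was −1.61 (limma adjusted p = 0.0395). Its adjusted p was 0.102 with no filter on low values and 0.0838 to 0.191 without any 1 of the replicates 1 and 3 of S2 or the T2 libraries, so the call rested on single libraries near 0. In M1 the same gene had 7.69, 8.11 and 6.13 TPM in T2, against 21, 18.4 and 24.5 TPM in S2, a difference of −1.48 (limma adjusted p = 0.0016). In M2 it had 1.39, 5.33 and 6.78 TPM in T2, against 13.6, 7.12 and 7.46 TPM in S2, which was called only after rescaling (−1.50, adjusted p = 0.037).

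Between T0 and S0 limma called 0 members and 0% of all genes tested in each line, as deposited and for the members also after rescaling. At an unadjusted p under 0.05, 2 members were lower and 5 higher in M1, against 1.68% and 4.54% of all genes. In M2 5 were lower and 2 higher, against 3.54% and 3.86%, and in MDA-MB-231 4 were lower and none higher, against 4.21% and 0.724%. The members' counts were thus near the share of all genes.

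The difference between lines was tested as such, by the TGF-β minus SB difference at 8 h in MDA-MB-231 minus that in an MCF10A line. A positive value means that the member was less lowered with TGF-β in MDA-MB-231. Against M1, 20 members were called higher and none lower, where 0.982% of all genes tested were called higher, and 19 of the 20 were also called lower in M1 itself. The members' median was 0.65, and that of all genes −0.09. After rescaling 34 members were called higher, against 2.04% of all genes, with a median of 0.74. As deposited the count was 10 to 13 without any 1 of 7 libraries, namely M1 S8 replicates 1 and 3, M1 T8 replicates 2 and 3, MDA-MB-231 S8 replicates 1 and 2, and MDA-MB-231 T8 replicate 3. It was 11 with the 4 compared groups fitted alone.

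Against M2, 4 members were called higher, where 0.358% of all genes tested were, and 21 after rescaling, against 2.25% of all genes. Beside these, 1 was called lower after rescaling, against 3.08% of all genes. The median was 0.25 for the members and −0.25 for all genes as deposited, and 0.55 against −0.08 after rescaling. The count of 4 was 2 without M2 S8 replicate 1 or 3, M2 T8 replicate 2, MDA-MB-231 S8 replicate 1 or 2, or MDA-MB-231 T8 replicate 1 or 3. As deposited 3 members, ranked 10, 48 and 99, were called against both MCF10A lines, and 20 after rescaling. Calls against both lines were counted for members only, with no share of all genes. For most members a difference in response between MDA-MB-231 and the MCF10A lines was therefore not called at 8 h.

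The calls were also counted by the members' level in non-stimulated MDA-MB-231 cells. Against M1, 11 of the 41 members with at least 10 TPM were called higher as deposited and 22 after rescaling, against 2.5% and 6.9% of all genes at that level. Of the 51 members from 1 to under 10 TPM, 7 and 9 were called, against 0.828% and 1.89% of all genes. Of the 8 members under 1 TPM, 2 and 3 were called, against 0.697% and 0.956% of all genes. Calls against M1 thus occurred at each level, and their share was highest at 10 TPM or more among all genes.

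Against M2, 1 of the 41 members with at least 10 TPM was called higher as deposited and 13 after rescaling, against 0.592% and 8.48% of all genes at that level. Of the 51 members from 1 to under 10 TPM, 2 and 6 were called, against 0.318% and 1.56% of all genes. Of the 8 members under 1 TPM, 1 and 2 were called, against 0.312% and 0.82% of all genes. As deposited these counts were too few to compare levels. With a pseudocount of 0.1 in place of 0.5, 77 of the 100 members still met the rule at 24 h.

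**Figure D5:**
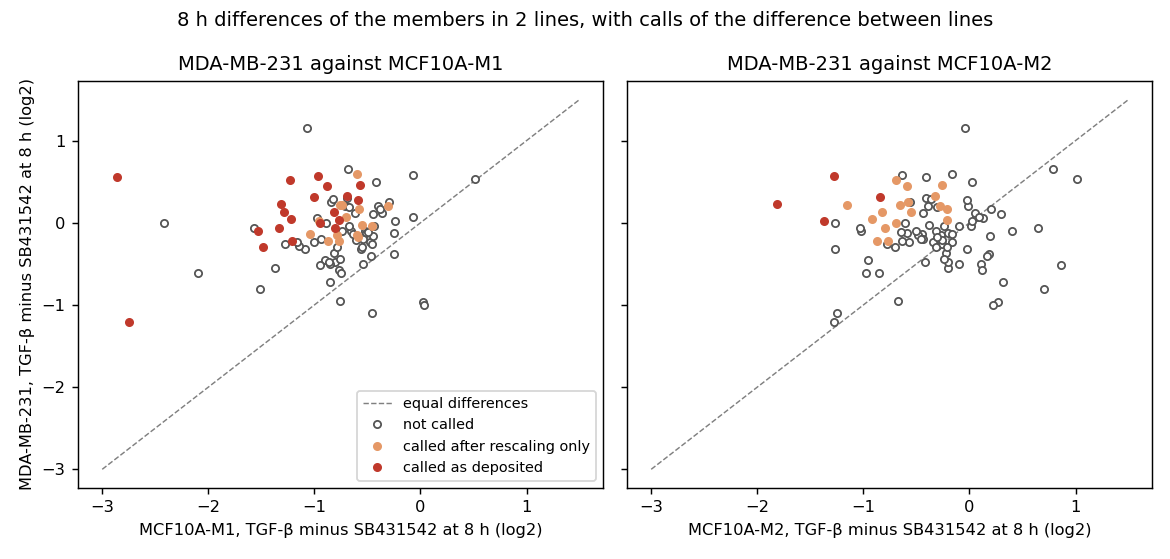
Difference between T8 and S8 (log2) of each member in MDA-MB-231 (y axis) against that in M1 (left) and M2 (right). Filled points mark members for which limma called a higher difference in MDA-MB-231, in red as deposited and in orange after rescaling only. The member called lower against M2 after rescaling is drawn open, and the dashed line marks equal differences. Against M1, 20 called members lie above the line, and against M2 4 do.

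The members called against both MCF10A lines were singled out for those calls. The member ranked 48 was well expressed in all lines. In MDA-MB-231 it had 76.1, 66.2 and 80.9 TPM in T8, against 48.4, 55.1 and 79 TPM in S8. In M1 it had 51.8, 49.4 and 58.5 TPM in T8, against 108, 109 and 104 TPM in S8, and in M2 48, 58.2 and 67.2 TPM in T8, against 101, 99.4 and 108 TPM in S8. The arms overlapped in MDA-MB-231 and stood apart in both MCF10A lines. The difference between MDA-MB-231 and M1 was 1.32 ± 0.25 (SE, limma adjusted p = 0.00174). Against M2 it was 1.15 ± 0.30 (limma adjusted p = 0.0344), which was not called with no filter on low values (adjusted p = 0.0541) or without most single libraries (0.0638 to 0.0965).

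The member ranked 99 showed the same arrangement at a lower level. It had 11, 13.2 and 16.2 TPM in MDA-MB-231 T8, against 7.28, 8.03 and 11.7 TPM in S8. In M1 it had 4.7, 4.76 and 4.49 TPM in T8, against 8.81, 10.3 and 9.59 TPM in S8, and in M2 4.54, 4.42 and 5.7 TPM in T8, against 12.2, 11.5 and 13.9 TPM in S8. TGF-β libraries were thus the lower ones in both MCF10A lines, and in MDA-MB-231 the arms overlapped with TGF-β mostly higher. The difference was 1.53 ± 0.31 against M1 (SE, limma adjusted p = 0.00345) and 1.85 ± 0.35 against M2 (adjusted p = 0.00193).

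The member ranked 10 had 0.968, 1.2 and 1.44 TPM in MDA-MB-231 T8, against 0.992, 0.745 and 1.11 TPM in S8. In M2 it had 2.19, 2.47 and 2.54 TPM in T8, against 9.22, 8.52 and 11.5 TPM in S8, and the difference between lines was 2.05 ± 0.33 (SE, limma adjusted p = 0.000346). The SB arm of M2 averaged 5.21, 4.17, 9.75 and 22.6 TPM at 0, 2, 8 and 24 h, so the low TGF-β values at 8 h stood beside SB values above those of the earliest samples. In M1 the gene was lower throughout, with 0.488, 0.256 and 0.36 TPM in T8, against 1.51, 1.4 and 2.08 TPM in S8. The difference between MDA-MB-231 and M1 was 1.55 (limma adjusted p = 0.0375), and it was not called with no filter (0.0528) or without most single libraries (0.0503 to 0.1).

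Against M1 alone, the member ranked 45 had the largest difference between lines, 3.42 ± 0.58 (SE, limma adjusted p = 0.000413), and was singled out for it. It had 3.66, 1.76 and 6.92 TPM in MDA-MB-231 T8, against 1.92, 1.89 and 3.27 TPM in S8. In M1 it had 0.422, 0.122 and 0.1 TPM in T8, against 6.53, 5.48 and 2.64 TPM in S8. The member ranked 6 differed by 1.43 ± 0.32 (limma adjusted p = 0.00866; 0.0546 with the compared groups alone). The member ranked 8 differed by 0.996 ± 0.21 (limma adjusted p = 0.00437), with 15.9, 11.5 and 16.6 TPM in MDA-MB-231 T8, against 14.3, 16.1 and 21.1 TPM in S8. In M1 it had 27.9, 29.6 and 29.8 TPM in T8, against 70.5, 70.2 and 63.7 TPM in S8. For NONHSAG009471.2 the difference between MDA-MB-231 and M1 was 1.54 (limma adjusted p = 0.0492). It was not called after rescaling (0.0946), with the compared groups alone (0.149) or without most single libraries (0.0534 to 0.158), and against M2 it was 0.07 (adjusted p = 0.97).

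Levels in non-stimulated cells also differed between lines, and the direction depended on the scaling. As deposited, 49 members were lower and 10 higher in MDA-MB-231 than in M1, against 39.4% and 9.71% of all genes tested. After rescaling 25 were lower and 36 higher, against 24.7% and 19.1% of all genes. Higher calls thus became more frequent after rescaling among members and among all genes, and more so among members. Between MDA-MB-231 and M2, 38 members were lower and 14 higher, against 23.6% and 14% of all genes. After rescaling 34 were lower and 27 higher, against 20.7% and 20.3% of all genes. Here lower calls were the more numerous under both scalings. Between M2 and M1, 15 members were lower and 9 higher, against 15.4% and 1.87% of all genes, and after rescaling 10 were lower and 31 higher, against 7.07% and 6.63% of all genes. Calls that held under both scalings were 25 lower and 10 higher for MDA-MB-231 against M1, and 34 lower and 14 higher for MDA-MB-231 against M2. The member ranked 6 was the extreme case, at 8.85 TPM in non-stimulated MDA-MB-231 cells, against 1925 TPM in M1 and 4116 TPM in M2.

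As a comparison, 67 genes met the 24 h thresholds for a lower level in all 3 lines. At 8 h in MDA-MB-231, 6 of these 67 were called lower in T8 than in S8 as deposited, with a median difference of −0.49. Of the 100 members 0 were called, with a median of −0.10, where 0.26% of all genes tested were. In M1 28 of the 67 were called lower with a median of −0.74, against 2.82% of all genes. In M2 11 were, with a median of −0.53, against 0.565% of all genes. That M2 share was 5.04% after rescaling, so the M2 counts hold for the deposited scaling only. The 8 h medians of both sets lay close to each other in M1, while that of the members was less negative in M2 and in MDA-MB-231. Both sets were chosen by the 24 h values of the same contrast, so the counts are given side by side with no test of their difference.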

How the data were processed

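Total RNA was sequenced on the Illumina platform, per the labels' protocols. HISAT2 2.2.0, StringTie 1.3.6 and cutadapt 2.10, besides FastQC, and the build GRCh38 are listed in the submitters' processing notes. Filters, annotation release and use of strand are not given in these sources, so overlapping, antisense and near-identical genes may share reads. The authors deposited TPM for 96411 lncRNA genes in 72 columns, which were assigned to samples by label; no libraries were identical. The series' design text gives 36 samples, where 72 are listed, and biological triplicates; if these shared a culture, p-values cover technical spread only.

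The set of members, the compared sets and the tests were chosen with earlier results of these data known. TPM were tested as log2(TPM + 0.5) with limma 3.58.1 (two-sided, with trend) in R 4.3.3, on 18 libraries per line or 36 for 2 lines; tables were handled with the R package data.table, version 1.17.8, Python 3.11.15 and pandas 2.3.3. The fit was tested on simulated data. Identifiers were printed for ranks 1 and 2, since no table pairs them with names; ranks 8, 45, 48, 92 and 99 were described after their values were seen. Alternatives were other pseudocounts, filters, scaling, a replicate block, other libraries in the fit and leaving out each library.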

Additional observations from a re-analysis of the deposited data

Results flagged for a closer look

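The results below were marked because the TGF-β minus SB difference at 8 h differed between lines in limma's test of that difference. Against M1 the difference in MDA-MB-231 was higher for 20 members, and against M2 for 4. Of all genes tested, 0.982% and 0.358% were called higher in these tests. Against M1 the differences were 1.54 for the member ranked 1, 1.43 for rank 6, 0.996 for rank 8, 1.55 for rank 10, 3.42 for rank 45, 1.32 for rank 48 and 1.53 for rank 99, in log2 units. Against M2 they were 2.05 for rank 10, 1.15 for rank 48 and 1.85 for rank 99. The calls of ranks 1 and 10 against M1 and of rank 48 against M2 were lost without most single libraries. That of rank 1 was also lost after rescaling, and those of ranks 1 and 6 against M1 with the compared groups alone.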

How the results depend on the processing

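After rescaling by median ratios, T8 below S8 was called for 49 members in M2 and 1 in MDA-MB-231, and the difference between lines was higher in MDA-MB-231 for 34 members against M1 and 21 against M2. Also after rescaling, 3 members were lower in T2 than in S2 of M2, 28 lower in T8 than in T0 of M2, 2 higher in S8 than in S0 of M2, and 41 differed between non-stimulated M2 and M1. With the compared groups alone, 11 members were called for MDA-MB-231 against M1. The difference between M2 and M1 in response called 1 member with a pseudocount of 1, after rescaling, with the 24 h libraries in the fit and with the compared groups alone. With no filter, 0 members were called at 2 h in MDA-MB-231. The cause was not tested.

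Over each line as a whole the replicate numbers gave no clear pairing of the libraries. Median correlations of same-numbered against different-numbered libraries of the 2 arms were 0.0228 against −0.0083 in M1 and −0.0164 against −0.0226 in M2. For MDA-MB-231 they were 0.0729 against −0.0365. Correlations of same-numbered libraries of the 2 arms ran from −0.0411 to 0.073 for M1, −0.0803 to 0.2507 for M2 and −0.0343 to 0.1846 for MDA-MB-231, and 5 of 9, 4 of 9 and 5 of 9 TGF-β libraries correlated best with their own number. At 8 h in M2 the pairs numbered 1 and 3 had 0.2507 and 0.1488, and the pair numbered 2 had −0.0164. At 2 h in MDA-MB-231 alone, all 3 same-numbered pairs were over 0.1 (0.1376 to 0.1846). With the replicate block the 2 h call of rank 1 in MDA-MB-231 stayed (limma adjusted p = 0.0332). With the replicate block the 8 h counts were 51 for M1, 9 for M2 and 0 for MDA-MB-231, 16 and 4 for MDA-MB-231 against M1 and M2, and 0 for M2 against M1; the count for non-stimulated M2 and M1 was 15.

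Leaving out 1 library gave 37 to 49 (T8 against S8, M1), 5 to 8 (M2) and 0 to 0 (MDA-MB-231), 10 to 22 and 2 to 6 (MDA-MB-231 against M1 and M2) and 0 to 1 (M2 against M1). At 2 h it gave 3 to 4 in M1 and 0 to 1 in MDA-MB-231. For T8 against T0 it gave 44 to 51 in M1 and 7 to 14 in M2, for higher in S8 than S0 in M1 3 to 6, and for non-stimulated lines 20 to 25, 52 to 58 and 46 to 51 (M2 against M1, MDA-MB-231 against M1, MDA-MB-231 against M2). The thresholds of the rule were met by 79 to 100 members, by 97 with a pseudocount of 1, 77 with 0.1 and 77 after rescaling. Reversed signs were 0.28 for rank 6 in MDA-MB-231 without S8 replicate 3 (−0.43 to 0.28 over single libraries), and for rank 1 against M2 (−0.26 to 0.39 over single libraries) −1.18 with a pseudocount of 0.1, −0.10 without M2 T8 replicate 2, −0.26 without MDA-MB-231 S8 replicate 1 and −0.23 without its T8 replicate 1. Of the other values of single members, 449 kept direction and side of the threshold, 53 lost and 7 gained a call. TPM keep no depth, so the error of low values is unknown.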
